A study of Homo sapiens with 26 samples.

Results

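The sites described here are the 6733 regions of the FOXA1rraa peak list that overlapped no peak of the FOXA1 list and no peak of the FOXA1nhaa list, called private FOXA1rraa sites below. They were chosen by the prefix of their peak name, Nonspecific_FOX, and make up 9.46% of the 71202 rows of the FOXA1rraa list and 6733 of the 399586 rows in the 5 peak lists used. What the prefix stood for is not given in the sources used here, so it is treated as a name only. Absence from the FOXA1 and FOXA1nhaa lists is therefore the choice itself and not a result.

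The study ran ChIP-seq, the sequencing of DNA pulled down with a protein, in BJ, an established fibroblast line from human foreskin, with an antibody to the HALO tag and 48 hours after ectopic expression of each tagged protein. The constructs were FOXA1, the FOXA1 variants that the labels call FOXA1dbd, FOXA1nhaa and FOXA1rraa, and HNF4A, a nuclear receptor. All 5 were expressed in the same fibroblasts and pulled down with the same antibody, and the labels give 2 ChIP and 2 input libraries for each. The lists give 1 set of regions per construct and no read counts, so there was no replicate error, no test between constructs, and no known depth. The 95% intervals below are Wilson intervals for shares and Newcombe intervals for differences between shares, and cover counting over regions only.

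FOXA1 is a forkhead transcription factor, whose winged-helix domain recognises TGTTTAC and related words, and it is known as a pioneer factor that can bind its sites in closed chromatin and opens liver and other endodermal enhancers during development. In earlier work on FOXA1, variants named NHAA and RRAA carried alanines in place of residues that contact DNA bases and the DNA backbone, respectively. The labels of these samples do not spell the substitutions out.

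The strongest private sites show the words on which the sequence results turn, and 7 of them are printed here, the 5 with the highest −log10 q and the next 2 that held a forkhead core. Each is the central 200 bp around the summit, the plus strand of GRCh37 (hg19), read 5′ to 3′. Capitals mark words on either strand. They are the forkhead cores, TGTTTAC or else TATTTAC, the core-like words, TATTGAC or else TGTTGAC, and 4 words built on TACAC, namely ATACACA, its partner GTGTGTA, the overlapping CATACAC, and lastly GTACACA.
PTGFR intron site, chr1:78910646-78910845: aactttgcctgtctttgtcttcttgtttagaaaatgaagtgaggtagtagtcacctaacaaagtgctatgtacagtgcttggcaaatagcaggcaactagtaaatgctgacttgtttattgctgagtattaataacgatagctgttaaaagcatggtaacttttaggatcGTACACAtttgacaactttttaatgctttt
ANKIB1 intron site, chr7:92008132-92008331: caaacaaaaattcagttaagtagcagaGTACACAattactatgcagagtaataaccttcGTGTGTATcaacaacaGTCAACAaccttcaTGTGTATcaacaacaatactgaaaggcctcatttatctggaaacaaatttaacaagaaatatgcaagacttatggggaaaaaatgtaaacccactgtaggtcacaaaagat
LINC02997 intron site, chr5:66828535-66828734: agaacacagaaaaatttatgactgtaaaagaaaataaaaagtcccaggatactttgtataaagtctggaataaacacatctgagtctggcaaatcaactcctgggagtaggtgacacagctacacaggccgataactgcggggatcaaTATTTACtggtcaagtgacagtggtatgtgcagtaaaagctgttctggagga
LINC02889 intron site, chr7:17551985-17552184: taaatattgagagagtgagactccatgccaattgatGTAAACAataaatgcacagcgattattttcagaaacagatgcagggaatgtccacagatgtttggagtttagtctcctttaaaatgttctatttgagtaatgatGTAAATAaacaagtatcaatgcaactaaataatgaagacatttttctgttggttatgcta
CABIN1 intron site, chr22:24447026-24447225: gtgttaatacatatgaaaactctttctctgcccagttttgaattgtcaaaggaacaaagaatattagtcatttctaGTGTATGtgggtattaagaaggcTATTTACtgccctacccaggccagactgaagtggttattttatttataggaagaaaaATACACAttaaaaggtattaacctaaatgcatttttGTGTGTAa
THSD4 intron site, chr15:71547537-71547736: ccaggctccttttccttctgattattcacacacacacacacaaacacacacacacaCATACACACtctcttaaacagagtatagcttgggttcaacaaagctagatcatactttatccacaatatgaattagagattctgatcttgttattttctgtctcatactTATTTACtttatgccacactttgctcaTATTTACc
BACH1 intron site, chr21:30627149-30627348: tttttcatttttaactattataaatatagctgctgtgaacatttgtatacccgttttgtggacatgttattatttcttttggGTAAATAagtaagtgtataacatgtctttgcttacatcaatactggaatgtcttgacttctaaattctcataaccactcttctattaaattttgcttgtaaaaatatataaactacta

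The PTGFR site, chr1:78910296-78910935, had the highest −log10 q of all private sites, 32.1, with a fold enrichment of 9.36, and lay in an intron of the gene for a prostaglandin receptor. Of these words its central 200 bp held GTACACA alone, 73 bp from the summit. The ANKIB1 site, chr7:92008007-92008386, was next at a −log10 q of 32.1 and a fold enrichment of 7.11. It also held no core, but it did hold the core-like TGTTGAC 22 bp from the summit and 4 words of the TACAC kind. A single TATTTAC lay 51 bp from the summit of the third site, chr5:66828416-66828787 in an intron of LINC02997, whose fold enrichment of 9.67 was the highest of all private sites. The fourth, chr7:17551459-17552383 in LINC02889, held both forkhead cores. In the fifth, chr22:24446952-24447328 in CABIN1, which encodes a calcineurin-binding protein, TATTTAC began 2 bp from the summit. The THSD4 site, chr15:71547444-71547815, combined 2 copies of TATTTAC with a run of CA dinucleotides, and the BACH1 site, chr21:30627058-30627409, held TATTTAC 15 bp from its summit.

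The peak caller's values describe the range of the private sites. Their width ran from 205 to 1163 bp with a median of 263 bp, their fold enrichment from 2.19 to 9.67 with a median of 3.95, and their −log10 q from 2.0 to 32.1 with a median of 6.29. The 3 lowest had a −log10 q of 2.0, at chr13:64954558-64954820 between genes, chr17:56993515-56993735 in PPM1E and chr1:48859855-48860086 in SPATA6. The other rows of the FOXA1rraa list came from other peak calls, since 41253 of them were rows of the FOXA1nhaa list and 23216 were rows of the FOXA1 list, so their medians (fold enrichments of 6.06 and 6.22) are on another scale and no order between the classes is read from them. At the edge of the choice, 25 private sites ended within 100 bp of a FOXA1 peak and 56 within 100 bp of a FOXA1nhaa peak. The nearest to a FOXA1 peak was 11 bp away, at chr13:106984511-106984957, and the smallest gap to a FOXA1nhaa peak was 1 bp. Just outside the choice, 2663 FOXA1rraa rows also overlapped no FOXA1 peak but were rows of the FOXA1nhaa list.

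Forkhead cores were more frequent in private sites than in the other regions compared, as these were centred here. In the central 200 bp, 1781 of 6733 private sites (26.5%, 95% interval 25.4 to 27.5%) held TGTTTAC or TATTTAC on either strand. Across the whole FOXA1rraa list the share was 20.0%. Among the FOXA1nhaa rows of the list that, like private sites, lay outside FOXA1 peaks it was 20.1%, which is 6.40 percentage points lower (4.52 to 8.22). The FOXA1 rows of the list had 22.5% (3.96 points lower, 2.79 to 5.16). That comparison is not like for like. All private sites contained their summit, but 3613 of the 23216 FOXA1 rows did not and were centred on their midpoint. In the other FOXA1 rows, cores were densest at −60 to −40 bp from the summit, at 1.68 per kb. Whether their centres were displaced, and the part of centring in the difference, was not tested. FOXA1nhaa regions outside both the FOXA1 peaks and the FOXA1rraa list had 10.7% (15.7 points lower, 14.6 to 16.8). In the whole FOXA1dbd list the share was 22.1% and in the HNF4A list 3.25%. Of all 14292991 windows of 200 bp with known sequence in the genome, 7.29% held a core, so private sites held one 3.63 times as often. TGTTTAC was found in 12.5% of private sites and 3.11% of windows, TATTTAC in 15.8% and 4.37%, and the weaker variant TGTTTGC in 8.09% and 3.41%. TGTTTGC stood in 6.26% of the FOXA1 rows and 8.26% of the FOXA1nhaa rows of the list outside FOXA1 peaks. From the latter, private sites differed by −0.17 points (−1.44 to 1.03), an interval that includes 0.

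**Figure D1:**
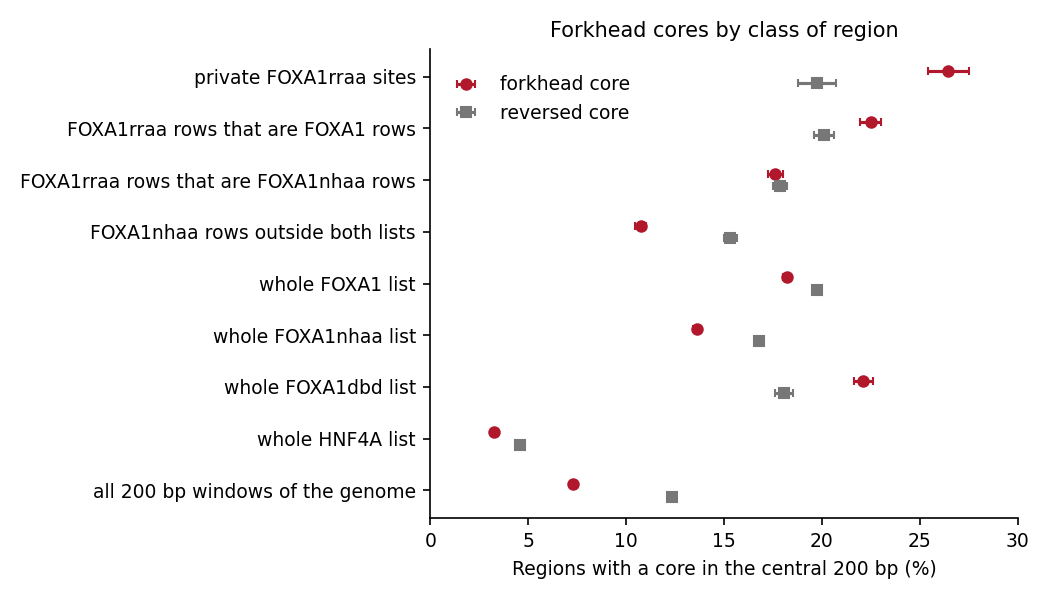
Share of regions (%) with a forkhead core (red circles) or the same letters reversed (grey squares) in the central 200 bp, by class of region, with 95% Wilson intervals. Private sites had the highest forkhead share, 26.5%, while their reversed share of 19.7% was close to that of the FOXA1 rows. Classes were not all centred alike, since FOXA1 rows without their summit and the whole FOXA1 list were centred on midpoints.

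Base composition differed between private sites and the genome. The median GC content of the central 200 bp was 34% in private sites and 40% in all windows. A private site held 0.886 CpG dinucleotides on average, against 1.96 in a window. The FOXA1 rows of the list had 32.5% and 0.849, and its FOXA1nhaa rows outside FOXA1 peaks 35% and 0.870. Low GC was thus shared by these classes, and it did not follow their forkhead shares. The cores read backwards, CATTTGT and CATTTAT, have the same composition and served as a reference. These were found in 19.7% of private sites, 20.1% of the FOXA1 rows, 15.3% of FOXA1nhaa regions outside both lists and 12.3% of all windows. Between private sites and the FOXA1 rows the reversed share differed by −0.37 points (−1.44 to 0.72), an interval that includes 0, unlike that of the forkhead cores. Forkhead cores thus outnumbered reversed cores in private sites, whereas reversed cores were the more frequent in all windows. This was not particular to private sites. The FOXA1 rows had 22.5% with forkhead and 20.1% with reversed cores. The FOXA1nhaa rows of the list outside FOXA1 peaks had 20.1 and 16.8%, and the FOXA1dbd list 22.1 and 18.1%. In the other classes and lists compared, reversed cores were the more frequent.

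The cores lay close to the summit. Within 40 bp of the summit private sites held 1.80 cores per kb, against 0.454 per kb at 400 to 500 bp, a ratio of 3.97. The same ratio was 2.92 in the FOXA1 rows with a summit inside the row, 2.05 in the FOXA1nhaa rows of the list, 1.39 in FOXA1nhaa regions outside both lists, and 1.49 for reversed cores in private sites. Cores of these FOXA1 rows were densest off the summit, at −60 to −40 bp. They had 1.68 per kb there, against 1.57 in private sites. The ratios of 3.97 and 2.92 are therefore not like for like. The middle base of a core lay within 20 bp of the summit in 510 private sites (7.57%). Most sites with a core had just 1 (1519), while 240 had 2 and 22 had 3 or more.

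**Figure D2:**
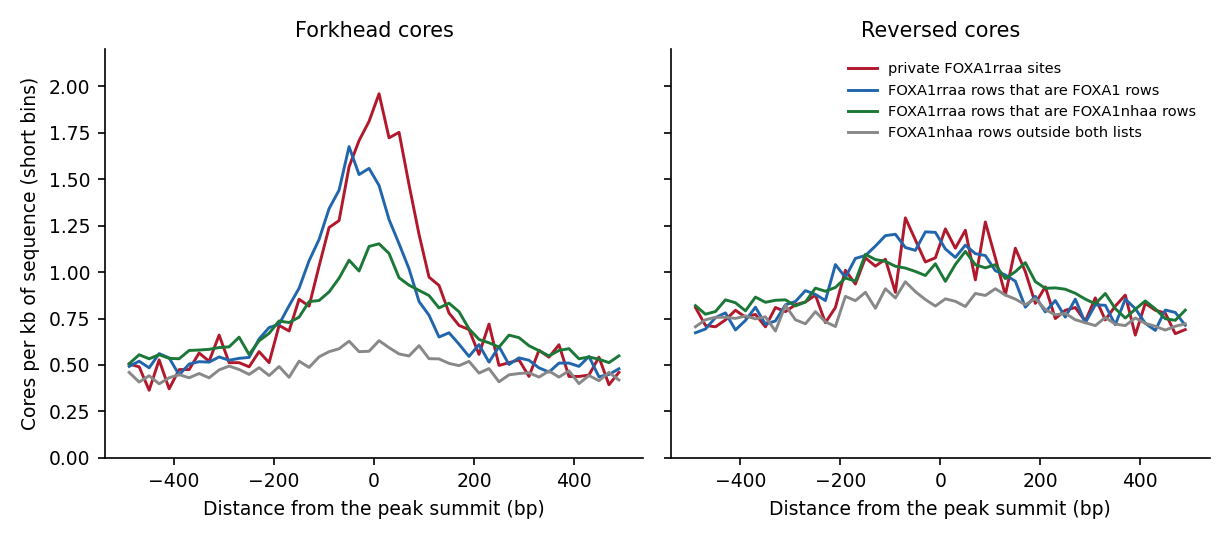
Forkhead cores (left) and reversed cores (right) per kb of sequence in 20 bp bins against distance from the peak summit (bp), for 4 classes of region. The forkhead line of private sites peaks at 1.96 per kb beside the summit, higher than the peaks of the other classes. That of the FOXA1 rows peaks off the summit, at −60 to −40 bp (1.68 per kb), where it lies above private sites. The reversed lines rise less.

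Other words were also frequent. Among the 6423 private sites without a run of 6 or more CA dinucleotides, all words of 7 letters were ranked by their density relative to the genome, as a description. AATACAC and ATACACA led, at 4.69 and 4.60 times the genome's density, ahead of the forkhead core TGTTTAC at 4.32. GTACACA (4.26), CATACAC (3.96) and TATTTAC (3.88) followed, with TATTGAC, which differs from a core by a single letter, at 3.81. These words overlap one another by several letters, so their counts are not separate. Of all private sites, 22.6% held ATACACA, 13.5% GTGTGTA, 10.2% CATACAC and 8.51% GTACACA, compared with 4.83, 3.11, 2.51 and 2.07% of all windows. At least 1 of these 4 words stood in 2150 private sites (31.9%, 30.8 to 33.1%), in 27.2% of the FOXA1 rows, in 22% of the FOXA1nhaa rows of the list and in 12.1% of FOXA1nhaa regions outside both lists. The 4 words were picked after private sites had been searched, so their excess there is no independent finding. TATTGAC and TGTTGAC stood in 6.85% and 6.51% of private sites, in 1.87% and 2.02% of windows and in 5.60% and 4.68% of the FOXA1 rows. They too were added after the search, so the same limit holds for them. A forkhead core, a core-like word or a TACAC word was found in 58.6% of private sites, and 2787 (41.4%) held none of them. This joint share was counted in private sites only, so it has no reference in windows or other classes.

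Runs of 6 or more CA dinucleotides, a microsatellite of mammalian genomes, were found in 310 private sites (4.60%, 4.13 to 5.13%), 3.45% of the FOXA1 rows, 1.21% of the FOXA1nhaa rows of the list, 0.213% of FOXA1nhaa regions outside both lists and 0.972% of all windows. Sites with such a run held a forkhead core less often, in 43 of 310 (13.9%, 10.5 to 18.2%), than the sites without, at 27.1% (26 to 28.2%). Runs of 12 A were rarer in private sites than in windows, 1.28% against 4.47%. They were also rare in the FOXA1 rows (1.31%) and in FOXA1nhaa regions outside both lists (0.743%). How reads in repeats were placed is not given in the sources used here, and its part in these shares was not tested.

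Words of other factors were set against all windows and against peak classes. The AP-1 word TGACTCA, read as TGAGTCA on the other strand and bound by the FOS and JUN proteins of fibroblasts, stood in 470 private sites (6.98%), 3.05% of windows, 9.37% of the FOXA1nhaa rows of the list, 18.6% of FOXA1dbd peaks and 18.2% of HNF4A peaks. Outside FOXA1 peaks, the FOXA1nhaa rows of the list had 6.61% (a difference of 0.371 points, −0.79 to 1.46, an interval that includes 0) and FOXA1nhaa regions outside both lists 5.6% (1.38 points lower, 0.750 to 2.05). The SOX word AACAATG stood in 7.53% of private sites and 4.09% of windows, the RUNX word TGTGGTT in 5.48% and 3.84%, and the TEAD word CATTCCA in 5.24% and 3.72%. In the FOXA1nhaa rows of the list outside FOXA1 peaks these 3 words stood in 8.37, 4.69 and 5.07%, and in the FOXA1 rows in 6.93, 5.21 and 4.75%. The intervals of the differences between private sites and both classes include 0 for all 3 words. The promoter words were scarcer than in windows. The GC box GGGCGG stood in 22 private sites (0.327%) and 2.88% of windows, and the ETS word CCGGAAG in 7 sites (0.104%) and 0.467%. These words were as scarce in similar classes. The FOXA1 rows had 0.375 and 0.142%, and the FOXA1nhaa rows of the list outside FOXA1 peaks 0.413 and 0.0376%. The intervals of the differences between private sites and both classes include 0 for these words. The HNF4 word CAAAGTCCA stood in 0.193% of private sites and 0.253% of windows. The E-box CACGTG stood in 1.44% and 1.82%, the cyclic-AMP word TGACGTCA in 3 sites (0.0446%) and 0.0695%, and the C/EBP word TTGCGCAA in 1 site (0.0149%) and 0.0210%. For the HNF4, cyclic-AMP and C/EBP words the interval of the difference from windows includes 0. The E-box stood in 1.61% of the FOXA1 rows and 1.13% of the FOXA1nhaa rows of the list outside FOXA1 peaks. Its differences between private sites and both classes have intervals that include 0.

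Private sites with a higher −log10 q held the words more often. From the lowest quintile to the highest, the forkhead share was 21.6, 27.1, 26.1, 28.3 and 29.2%. The intervals of the lowest quintile (19.5 to 23.9%) and the highest (26.8 to 31.7%) did not overlap, and those of the upper 4 quintiles did. The share with a TACAC word went from 25.2% (23 to 27.6%) to 37.9% (35.3 to 40.5%), and that with a core-like word from 9.58 to 15.0%. The reversed cores stayed between 18.3 and 20.6%, and the median GC content between 33.5 and 34%. Width moved along with −log10 q, its median being 239 bp in the lowest quintile and 315 bp in the highest, although the window searched was 200 bp in every site.

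**Figure D3:**
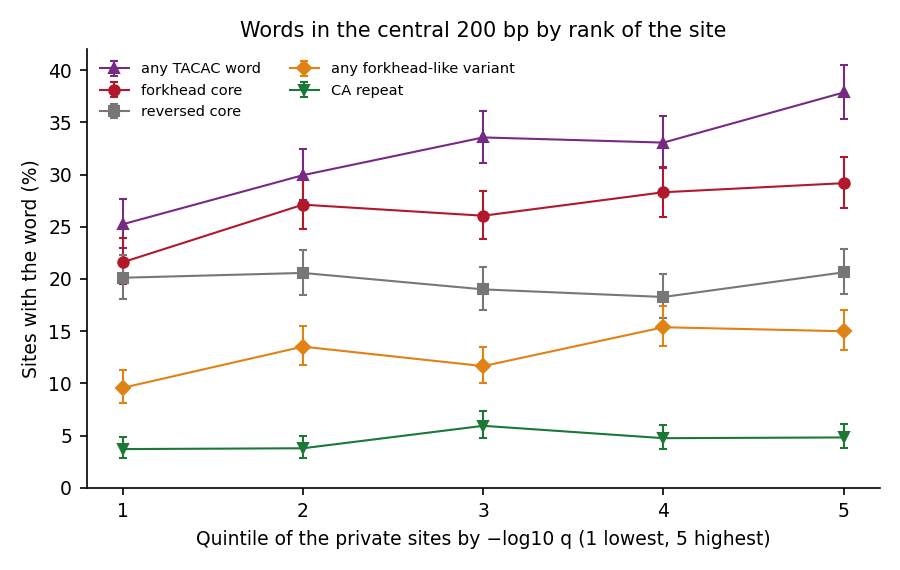
Share of private sites (%) with each kind of word in the central 200 bp, in quintiles of the sites by −log10 q, with 95% Wilson intervals. TACAC words and forkhead cores are lowest in the first quintile (25.2 and 21.6%), and reversed cores lie between 18.3 and 20.6% throughout.

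Private sites lay near FOXA1 peaks. The gap to the nearest FOXA1 peak ran from 11 to 1935103 bp with a median of 4261 bp, and 5059 private sites (75.1%, 74.1 to 76.2%) lay within 10 kb of one, against 44.3% of all windows outside FOXA1 peaks. FOXA1nhaa regions outside both lists came close to this, at 72.1% (3.07 points lower, 1.94 to 4.18). The FOXA1nhaa rows of the list outside FOXA1 peaks had 77.9%, from which private sites differed by −2.74 points (−4.60 to −0.83). The gap exceeded 100 kb for 76 private sites. The farthest was chr13:70111733-70111981, between genes, with a −log10 q of 4.50. Gaps to the nearest other row of the FOXA1rraa list had a median of 10075 bp, and neighbouring private sites a median distance of 190308 bp, with 61 pairs within 1000 bp.

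**Figure D4:**
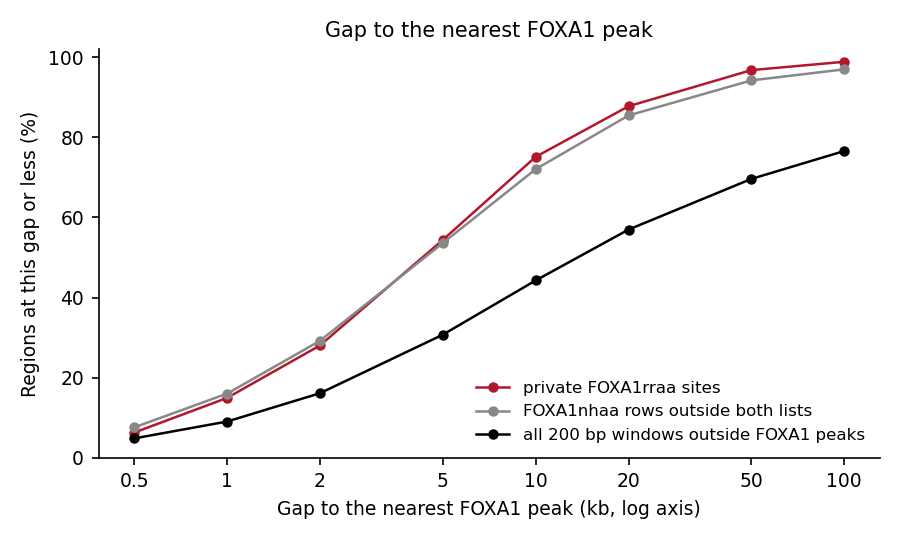
Cumulative share of regions (%) against the gap to the nearest FOXA1 peak (kb, log axis). At 10 kb the private sites reach 75.1%, FOXA1nhaa regions outside both lists 72.1%, and all 200 bp windows outside FOXA1 peaks 44.3%.

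The numbers in the peak names bear on what the lists leave out. Numbers of private sites ran from 1 to 83425 in coordinate order, so 76692 numbers of that call had no row with this prefix, and the FOXA1rraa list held 64469 other rows. For 713 of 6709 pairs of neighbouring private sites the numbers were consecutive, and none of these pairs had another row of the list between them. Between neighbours there were a median of 7 missing numbers and 6 other rows. The 2 counts differed by at most 1 in 3963 pairs (59.1%), and both grow with the distance between neighbours. The FOXA1 list itself held 149186 of up to 211576 numbers (70.5%), so some numbered FOXA1 peaks are not in the list used to define the private sites. Of the 6728 private sites with a FOXA1 row on both sides, 2612 (38.8%, 37.7 to 40%) lay between FOXA1 rows with the same or consecutive numbers. No FOXA1 number is missing there. Some numbers repeat, since the list has 155652 rows, so whether part of a numbered peak was left out there is unknown. The share of 38.8% was near that of all windows outside FOXA1 peaks, 37.9%, and below that of FOXA1nhaa regions outside both lists, 44.7%. For the other private sites, a FOXA1 peak left out of the list and no FOXA1 peak at all cannot be told apart. The forkhead share was 25.7% among those 2612 and 26.5% among all private sites.

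Overlap with the other constructs was rare. An HNF4A peak overlapped 80 private sites (1.19%, 0.956 to 1.48%), against 2.05% of the whole FOXA1rraa list, 1.65% of its FOXA1 rows (a difference of −0.466 points, −0.755 to −0.138) and 1.38% of FOXA1nhaa regions outside both lists (a difference of −0.19 points, −0.45 to 0.12, an interval that includes 0). The FOXA1nhaa rows of the list outside FOXA1 peaks had 1.84% (a difference of −0.65 points, −1.28 to −0.12). Among private sites overlapping HNF4A, those named next had the highest −log10 q. The 3 with the highest −log10 q lay at chr6:119043888-119044247 near CEP85L, with the AP-1 word, at chr3:141426534-141426976 in LRRC78P, and at chr1:119506116-119506579 in an intron of TBX15, a T-box transcription factor gene of mesenchymal cells. A FOXA1dbd peak overlapped 38 private sites (0.564%), against 24.5% of the whole list. The FOXA1dbd share is not independent of the choice, because 96.2% of FOXA1dbd peaks overlap FOXA1 peaks, where no private site can be. Of the classes that also lie outside FOXA1 peaks, the FOXA1nhaa rows of the list had 0.826% (a difference of −0.26 points, −0.71 to 0.088, an interval that includes 0) and FOXA1nhaa regions outside both lists 0.213% (0.351 points lower, 0.191 to 0.564). The 3 with the highest −log10 q were at chr12:81662330-81662680 in PPFIA2, at chr5:98071903-98072356 near RGMB and at chr17:76695605-76695882 in CYTH1.

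Most private sites lay in introns. By the GENCODE annotation, 62.0% of the centres were in introns (windows 52.3%), 27.6% between genes (36.9%), 4.16% in exons (3.36%) and 422 (6.27%, 5.71 to 6.87%) within 1000 bp of a transcription start (7.5%). Against the FOXA1 rows of the list, with 64.1% in introns and 22% between genes, the differences were −2.10 points (−3.42 to −0.80) and 5.59 points (4.41 to 6.79). FOXA1nhaa regions outside both lists had 61.3% in introns and 27.0% between genes. There the differences were 0.71 points (−0.55 to 1.95) and 0.53 points (−0.61 to 1.69), and both intervals include 0. The share near starts was 8.65% in the whole FOXA1rraa list, 8.31% in its FOXA1 rows (a difference of −2.05 points, −2.71 to −1.35) and 6.46% in its FOXA1nhaa rows outside FOXA1 peaks (a difference of −0.19 points, −1.33 to 0.87, an interval that includes 0). The start-proximal site with the highest −log10 q, chr3:189349261-189349630, lay 135 bp from a start of TP63, a p53-family gene of epithelia. The next was 606 bp from a start of TMOD3, which encodes a protein that caps actin filaments, at chr15:52214123-52214444 and 68 bp from a FOXA1 peak. The third was 861 bp from that of AC105398.1, at chr2:29304874-29305294.

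A private site lay in 2622 of 20136 protein-coding genes (13%), whose median length was 133 kb against 21.7 kb for the others. The genes with the most were long. MACROD2, which encodes an ADP-ribose hydrolase, spans 2058 kb and held 14, beside 40 FOXA1nhaa rows and 21 FOXA1 rows of the list. PLCB1, a phospholipase gene, held 12, MAGI2 and NAV3 held 10 each, NAALADL2, RBMS3 and ROBO1 held 9 each, RASAL2 and SPAG16 held 8 each, and CEP128 held 7. Per length, among genes over 50 kb, GKAP1 was one of the densest, with 5 sites in 90.1 kb (5.55 per 100 kb) beside 1 FOXA1nhaa row and no FOXA1 row of the list. TFB1M, which encodes a mitochondrial methyltransferase, had 5.14 per 100 kb, PSTPIP2 4.51 and C1GALT1 4.36.

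Gene lists were compared per length. Among 26 genes of neural adhesion and synapses, with a median length of 1337 kb, 11 held a site and 9 held several, led by MAGI2 (10), ROBO1 (9), CDH13 (6), LSAMP (5), NLGN1 and NRXN3 (4 each), CTNNA2 (3), and PCDH9 and ROBO2 (2 each), but per length the list had 1.22 sites per Mb against 2.93 over all protein-coding genes. The 26 fibroblast transcription factor genes held 12 sites in 8 genes (3.68 per Mb), with 3 in RUNX1 and 2 each in TBX15 and ZEB1. Cytoskeleton and adhesion genes held 9 sites in 5 of 22 genes (3.54 per Mb), with 3 in PALLD, which encodes the actin-bundling palladin, and 2 each in CALD1 and LPP. The matrix genes held 4 sites in 3 of 20 genes (3.07 per Mb), 2 of them in FBN1, the fibrillin gene. Housekeeping genes held 2 sites in 2 of 15 genes. The 26 liver genes, which include known FOXA and HNF4A targets such as ALB and TTR, held none in 0.575 Mb, where the list had 7 FOXA1nhaa rows and 6 FOXA1 rows. Outside the neural list, with 47 sites, these counts are small. As a share of the FOXA1rraa rows in the genes, the order was another. Private sites made up 10.9% of these rows in the neural list, 8.70% in housekeeping genes and 7.94% over all protein-coding genes. The share was 7.27% in fibroblast transcription factor genes, 5.03% in cytoskeleton and adhesion genes and 3.51% in matrix genes. No ranking of the lists is read from these values.

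Private sites were spread over the genome at 2.36 per Mb of known sequence. Of chromosomes 1 to 22 and X, chromosome 6 had the most, 3.17 per Mb, while chromosome X had 0.801, chromosome 19 had 1.29 and chromosome 22 had 1.32. As a share of the FOXA1rraa rows, private sites made up 9.37% (9.16 to 9.59%) over the autosomes and between 8.36% and 12% on each autosome other than 19. On chromosome 19 the share was 16.2% (72 of 445 rows, 13.1 to 19.9%), and on chromosome X it was 17.0% (121 of 713 rows, 14.4 to 19.9%). Both intervals lie above that of the autosomes together. Chromosome Y, with 9 private sites among 47 rows, was left out of these comparisons for its small number. Of 3113 windows of 1 Mb, 971 held no private site, and the median was 2. The densest were 96000001 to 97000000 on chromosome 5, with 16 sites over CAST, ERAP1, ERAP2, LIX1, LNPEP and RIOK2, then 8000001 to 9000000 on chromosome 20, with 14 over PLCB1 and TMX4, and 29000001 to 30000000 on chromosome 21, with 14 and no protein-coding gene.

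**Figure D5:**
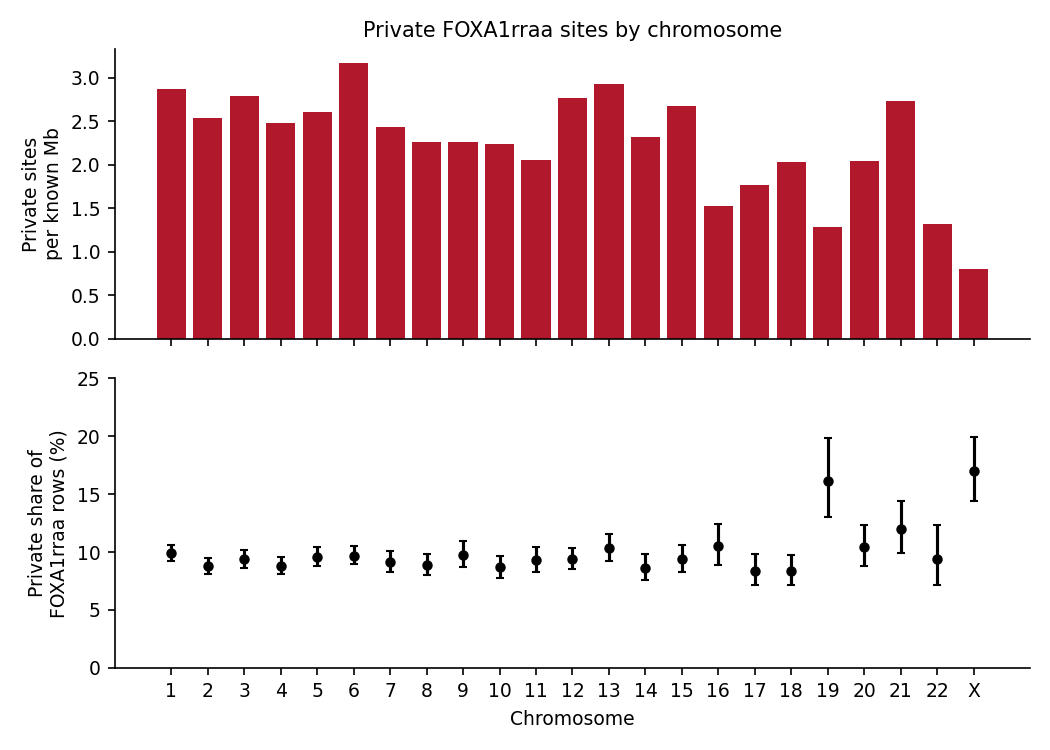
Private sites per Mb of known sequence (top, bars) and as a share of the FOXA1rraa rows (bottom, %, with 95% Wilson intervals) on chromosomes 1 to 22 and X. The share is 16.2% on chromosome 19 and 17.0% on X, where the density is among the lowest.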

How the data were processed

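ChIP-seq peak lists of 5 constructs were analysed, 1 list per construct. The submitters' processing notes name Bowtie2 2.3.4.1, Picard, GATK 4.2.6.0, bedtools 2.27.1, MACS2 2.2.7.1 and deepTools 3.5.0 and the build hg19, with no role or order. Whether peaks were called per library or on pooled libraries, and how inputs were used, is not given in the sources used here. The deposited lists hold a score for each peak, and all but the FOXA1 list also hold a summit, a −log10 q-value and −log10 p-value, and a ratio of enrichment (fold), all as deposited by the authors. These values describe and rank peaks within a call only. The lists hold no counts, so the depth is unknown. The down-sampled FOXA1 list and the 6 H2B samples were not used here.

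Private sites were read by prefix, and overlap meant at least 1 bp. A region was centred on its summit if the row contained it and on its midpoint if not, as for all of the FOXA1 list. Both strands of the central 200 bp were searched for each word in GRCh37, as were those of all 200 bp windows without unknown bases laid end to end, a census and not a chance test. Genes came from GENCODE 44 lifted to GRCh37. Calculations used Python 3.11.15, numpy 2.4.6, pandas 2.3.3 and pysam 0.24.0, and the overlap, gap, word and interval code was tested on simulated data. Peaks are not replicates, so no p-value is given.

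Named sites were the 10 highest and 3 lowest by −log10 q, the 5 highest with a core, the 3 highest at a start, in an HNF4A peak or in a FOXA1dbd peak, and the nearest to and farthest from FOXA1. Named genes were the 10 with the most sites, the 5 densest over 50 kb (1 of them, the densest, is not reported here), the 3 densest windows of 1 Mb, and list genes with several sites. The members, the gene lists and the words were chosen with earlier results of these data known. The core-like words, TACAC words, CA repeats and A runs were added after the sites had been searched. Alternatives were a central 100 bp, midpoints, reversed cores, centres within 200 bp, overlaps over 50% of the shorter peak, 2500 bp from a start, the top 50% of sites or of FOXA1 peaks, a −log10 q of at least 5, chromosomes 1 to 22 and merged sites.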

Additional observations from a re-analysis of the deposited data

How the results depend on the processing

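Of 36 values recomputed under other settings, 26 stayed within the 95% interval of the reported value (a count, within 1.5 times it) and 10 moved. A −log10 q of at least 5 left 4956 sites. The forkhead share was 15.5% in the central 100 bp, 28.1% in the top 50% of sites by −log10 q, and 19.7% with reversed cores, for which the difference from the FOXA1 rows was −0.37 points in place of 3.96. The HNF4A share was 0.817% when the overlap had to cover 50% of the shorter peak. Within 2500 bp of a start lay 14.8%. With the top 50% of FOXA1 peaks by score, 54.0% of sites lay within 10 kb of one. The median fold enrichment was 4.46 in the top 50% of sites. Keeping the sites between the same or consecutive FOXA1 numbers, a setting chosen after seeing the data, left 2612 sites. Of these, 0.306% overlapped a FOXA1dbd peak and 87.6% lay within 10 kb of a FOXA1 peak, where rows are dense by construction. The causes of the other moves were not tested, beyond a smaller window, a stricter overlap, a longer distance or fewer peaks. No paired analysis was possible because the lists carry no replicate numbers, and with a single list per construct none could be dropped to leave out a replicate. The lists hold no read counts, so no limit of detection can be given for a site absent from a list.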
